A study of Homo sapiens with 6 samples.

Results

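A set of 10 genes of lipid peroxidation and iron handling were followed in RNA sequencing of human cells with and without a hairpin against ACSS2. They are GPX4, AIFM2 and SLC7A11, which act against lipid peroxidation, ACSL1, ACSL3, ACSL4 and LPCAT3, which activate and place fatty acids, and FTH1, FTL and TFRC, which store iron or bring it in. The members were the rows of the deposited count table whose gene name equals one of these 10 symbols, out of 58735 features, and all 10 were among the 16210 genes tested. The cells are labelled BE(2)-C, a line derived from a neuroblastoma. NS cells carried a lentiviral non-silencing hairpin (n = 3 libraries, genotype tag Wildtype) and shACSS2 cells one against ACSS2, the enzyme that makes acetyl-CoA from acetate (n = 3 libraries, genotype tag ACSS2 deficiency). Both groups went through infection and puromycin selection. The titles write the knockdown as siACSS2 and the treatment text calls the line shNgBR in 1 place. Whether each line was a pool or a clone, how many hairpins were used and whether the libraries came from separate cultures was not stated in the sources used here. P-values therefore measure the spread among these libraries and no more, and that spread may be technical.

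Ferroptosis is a form of cell death driven by iron-dependent peroxidation of polyunsaturated fatty acids in membrane phospholipids. ACSL4 links such fatty acids to coenzyme A and LPCAT3 places them in phospholipids, while ACSL3 favours monounsaturated ones. GPX4, a selenoenzyme, reduces lipid peroxides with glutathione, whose cysteine comes from cystine imported by SLC7A11, and AIFM2 (also called FSP1) regenerates reduced ubiquinone as another defence. TFRC takes up transferrin-bound iron, and ferritin, built of FTH1 and FTL chains, stores it.

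Library totals ran from 16617885 to 20831599 counts. An expected count of 3, taken as an approximate upper limit where 0 were counted, was 0.144 to 0.181 counts per 1000000 counts of a library (CPM). This floor covers counting error alone. ACSS2 stood at 20.8, 20.5 and 20.2 CPM in NS and at 4.67, 5.14 and 6.16 CPM in shACSS2, a log2 fold change of −1.94 (SE 0.145; adjusted p = 1.95e-06 by edgeR). CPM are given after TMM composition factors. The span of ACSS2 overlaps GGT7 on the other strand, with 5894 counts against 1460 for ACSS2, so its level is uncertain too where counting ignored strand. Mitochondrially encoded genes held 1.25% to 2.2% of the counts in NS and 0.692% to 0.775% in shACSS2, and 24268 to 24903 features had counts in NS against 22960 to 23353 in shACSS2. The part of these differences in the results below was not tested. Of 18 sympathoadrenal neuroblastoma markers, 6 had 0 counts in every library (among them PHOX2A, TFAP2B, SOX11, TH and ALK) and 4 had a mean of at least 5 CPM. Of 10 embryonic kidney markers, 8 had such a mean and none was at 0 throughout. These levels sit poorly with the label of a neuroblastoma line, and the identity of the cells was not tested. The embryonic kidney markers summed to 207 to 219 CPM in NS and 184 to 209 CPM in shACSS2, and the sympathoadrenal ones to 88.8 to 92.9 and 95.5 to 118 CPM. Of the 8 sympathoadrenal markers tested, GATA2 and ISL1 rose (log2 fold changes 0.41 and 0.51). CHGA, CHGB and MYCN, each below 2 CPM on average, fell (−1.68, −1.03 and −1.14). These falls rest on few counts, for MYCN 27 to 40 per NS library and 7 to 18 per shACSS2 library. The 6 Schwann cell markers summed to 30.0 to 34.9 CPM in NS and 30.9 to 34.2 CPM in shACSS2. The 10 mesenchymal or stromal markers summed to 494 to 555 CPM in NS and 488 to 538 CPM in shACSS2. In bulk RNA, fewer cells of a type and less RNA per cell cannot be told apart.

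The iron genes carry in their untranslated regions (UTRs) the hairpins that iron regulatory proteins bind when iron is scarce. Binding in the 5′ UTR of a ferritin RNA blocks its translation, and binding in the 3′ UTR of TFRC RNA protects it from decay, so that TFRC is the iron gene of the set whose RNA level reads this control most directly. The windows below are 29 bases from GENCODE v29 transcripts and are shown because these elements place FTH1, FTL and TFRC under 1 control. Capitals mark the bulged C and the CAGTG of the loop.
FTH1, 5′ UTR: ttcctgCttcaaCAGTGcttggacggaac
FTL, 5′ UTR: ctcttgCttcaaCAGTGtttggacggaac
SLC40A1, 5′ UTR: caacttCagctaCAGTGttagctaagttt
TFRC, 3′ UTR, window 1: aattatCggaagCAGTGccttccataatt
TFRC, 3′ UTR, window 2: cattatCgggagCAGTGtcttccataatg
TFRC, 3′ UTR, window 3: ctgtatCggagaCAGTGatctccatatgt
TFRC, 3′ UTR, window 4: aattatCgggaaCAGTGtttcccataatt
The search asked, on the transcript strand, for C, any 5 bases and CAGTGN, with the 5 bases after the bulged C all paired to the 5 bases after the loop, G-T pairs included. In GRCh38 coordinates the windows lie at chr11:61967574-61967602 (minus strand) in FTH1, chr19:48965335-48965363 (plus) in FTL and chr2:189580661-189580689 (minus) in SLC40A1, the iron exporter. Those of TFRC lie on the minus strand at chr3:196050979-196051007, chr3:196050575-196050603, chr3:196050510-196050538 and chr3:196050463-196050491. Such a window was present in the 5′ UTR of 28 of 18944 genes (0.148%) and in the 3′ UTR of 127 of 19066 (0.666%). A match is a description of these letters and does not show binding.

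In shACSS2, 4 of the 10 members passed the test, 3 higher and 1 lower, and the other 6 did not (quasi-likelihood test of edgeR, p under 0.05 after Benjamini-Hochberg adjustment over all genes). GPX4, ACSL4 and FTL rose and SLC7A11 fell. Across all genes tested 17.1% passed, 7.48% higher and 9.64% lower. For 6 members the groups had no CPM range in common, 5 higher and 1 lower in shACSS2, against 36.3% of all genes tested. The median log2 fold change of the members was 0.17, beside 0.00 over all genes tested. Every change was modest, with fitted folds from 0.662 for SLC7A11 to 1.50 for GPX4. These counts depended on single libraries: 1 member passed without NS replicate 1, 5 passed without shACSS2 replicate 1, and 2 passed with each of the other 4 left out in turn. The share of all genes that passed moved alongside, to 6.15% without NS replicate 1, 23.5% without shACSS2 replicate 1 and 6.98% to 15.5% without the others. With library totals as the scaling 3 members passed, GPX4 higher and SLC7A11 and ACSL3 lower, beside 17.5% of all genes.

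**Figure D1:**
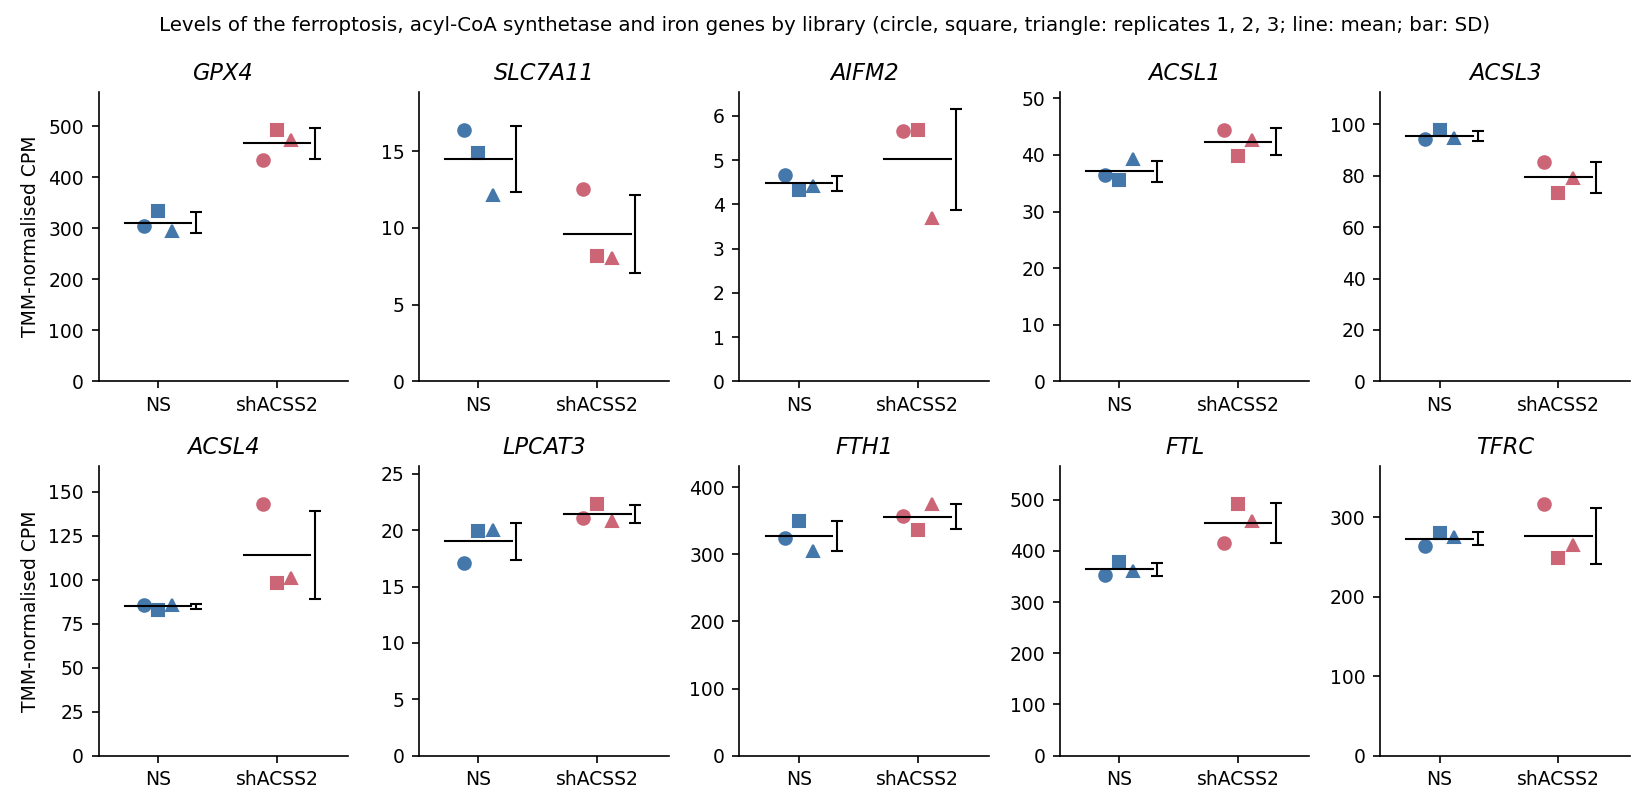
TMM-normalised CPM (vertical axis, from 0) of each of the 10 genes in the NS and shACSS2 libraries, with the mean as a line and the SD as a bar (n = 3). GPX4, ACSL1, ACSL4, LPCAT3 and FTL sit higher in every shACSS2 library than in any NS library and ACSL3 lower, while SLC7A11, AIFM2, FTH1 and TFRC overlap.

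**Figure D2:**
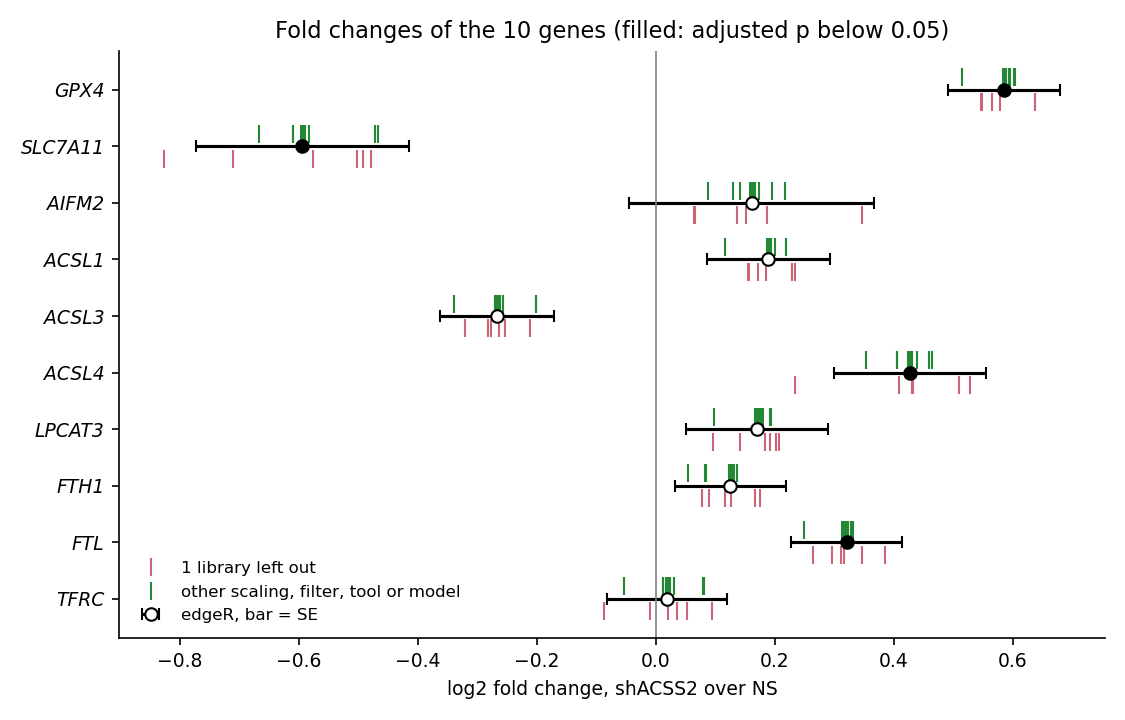
Log2 fold change of shACSS2 over NS for each gene (horizontal axis) from edgeR with its SE, beside the values with 1 library left out and under other scalings, filters, tools or models. GPX4 keeps to 0.51 to 0.64 throughout, SLC7A11 spreads from −0.83 to −0.47, and TFRC crosses 0.

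GPX4 had the smallest p of the members and ranked 228 of 16210 genes by p. GPX4 (ENSG00000167468, chromosome 19, 1103926 to 1106791, GRCh38, plus strand) stood at 304, 334 and 295 CPM in NS replicates 1 to 3 and at 434, 493 and 473 CPM in shACSS2 replicates 1 to 3. Every shACSS2 library lay above every NS library, and the gap between the groups exceeded the spread within either. The means were 311 ± 20.2 and 466 ± 29.9 CPM (SD, n = 3 each), a log2 fold change of 0.59 (SE 0.0938; adjusted p = 0.000866 by edgeR). GPX4 kept this call under each of 17 alternatives, with adjusted p from 2.26e-08 to 0.0134.

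SLC7A11, the cystine carrier of system xc-, moved the other way. SLC7A11 (ENSG00000151012, chromosome 4, 138164097 to 138242349, minus strand) stood at 16.4, 14.9 and 12.2 CPM in NS and at 12.5, 8.20 and 8.06 CPM in shACSS2. The groups overlapped, because shACSS2 replicate 1 lay above NS replicate 3, and shACSS2 replicates 2 and 3 were the lowest of all. The means were 14.5 ± 2.14 and 9.59 ± 2.53 CPM (SD, n = 3 each), a log2 fold change of −0.59 (SE 0.179; adjusted p = 0.0322 by edgeR). Its counts were low, 264 to 288 in NS and 134 to 201 in shACSS2. The call ended when NS replicate 1 or 2 or shACSS2 replicate 2 or 3 was left out, at log2 fold changes of −0.50, −0.58, −0.49 and −0.48 (adjusted p = 0.151, 0.0787, 0.103 and 0.115 by edgeR).

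AIFM2 was the scarcest member at this depth. AIFM2 (ENSG00000042286, chromosome 10, 70098223 to 70132934, minus strand) was read 82, 82 and 96 times in the NS libraries and 91, 93 and 66 times in those of shACSS2, or 4.48 ± 0.173 and 5.02 ± 1.14 CPM (SD, n = 3 each). Its log2 fold change was 0.16 (SE 0.206; adjusted p = 0.632 by edgeR), and shACSS2 replicate 3 was the lowest library while the other two were the highest. The annotated span of AIFM2 overlaps H2AFY2 on the other strand, which had 8913 counts against 510 for AIFM2. Its value is uncertain, since no source used here gives the strand setting.

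Of the 3 acyl-CoA synthetases, ACSL4 alone passed the test. ACSL4 (ENSG00000068366, chromosome X, 109624244 to 109733403, minus strand), the form that prefers arachidonic acid, stood at 85.7, 83.0 and 85.7 CPM in NS and at 143, 98.0 and 101 CPM in shACSS2. All shACSS2 libraries lay above all NS libraries, with shACSS2 replicate 1 far above the other two. The means were 84.8 ± 1.57 and 114 ± 25.1 CPM (SD, n = 3 each), a log2 fold change of 0.43 (SE 0.127; adjusted p = 0.0302 by edgeR). Without shACSS2 replicate 1 the log2 fold change was 0.23 (adjusted p = 0.0267 by edgeR). The call ended without NS replicate 1, 2 or 3 (log2 fold changes of 0.43, 0.41 and 0.43; adjusted p = 0.107, 0.0826 and 0.0949 by edgeR) and with library totals as the scaling (0.35; adjusted p = 0.0591 by edgeR).

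ACSL3 (ENSG00000123983, chromosome 2, 222860934 to 222944639, plus strand), found at lipid droplets and the endoplasmic reticulum, stood at 94.2, 97.9 and 94.6 CPM in NS and at 85.5, 73.5 and 79.2 CPM in shACSS2. The groups did not overlap, with shACSS2 lower throughout, but ACSL3 did not pass the test. Its log2 fold change was −0.27 (SE 0.0955; adjusted p = 0.0645 by edgeR). ACSL3 passed it without shACSS2 replicate 1 (−0.32; adjusted p = 0.00597 by edgeR), with library totals (−0.34; adjusted p = 0.0213 by edgeR), and with an offset for GC content and gene length (−0.20; adjusted p = 0.0329 by edgeR).

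The ratio of ACSL4 to ACSL3 counts within a library does not depend on how libraries are scaled. It was 0.911, 0.848 and 0.906 in NS and 1.67, 1.33 and 1.28 in shACSS2. ACSL4 thus had fewer counts than ACSL3 in each NS library and more in each shACSS2 library. The log2 ratio differed by 0.68 between the groups, 0.56 without shACSS2 replicate 1. An exact two-sided permutation test gave p = 0.1, the smallest that 3 against 3 libraries allow, and 0.3 when adjusted over the 3 ratios examined, so that a difference in the ratio was not shown by this test.

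**Figure D3:**
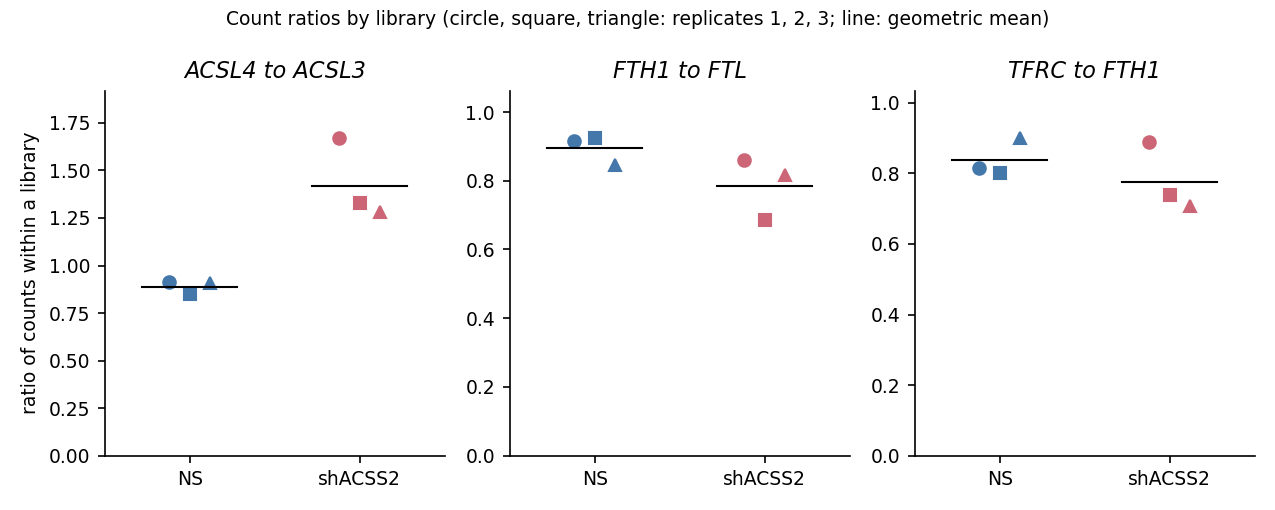
Ratio of counts of 2 genes within each library (vertical axes, from 0) for NS and shACSS2, with the geometric mean of a group as a line. The ACSL4 to ACSL3 ratio is 0.848 to 0.911 in NS and 1.28 to 1.67 in shACSS2, and the other 2 ratios overlap between the groups.

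ACSL1 and LPCAT3 did not pass the test. ACSL1 (ENSG00000151726, chromosome 4, 184755595 to 184826818, minus strand), the main synthetase of fat and liver, stood at 36.5, 35.7 and 39.2 CPM in NS and at 44.5, 39.8 and 42.7 CPM in shACSS2. The groups were close and did not overlap, at a log2 fold change of 0.19 (SE 0.103; adjusted p = 0.22 by edgeR). LPCAT3 (ENSG00000111684, chromosome 12, 6976186 to 7018510, minus strand) stood at 17.1, 19.9 and 20.01 CPM in NS and at 21.05, 22.3 and 20.8 CPM in shACSS2. Its groups did not overlap either, at a log2 fold change of 0.17 (SE 0.119; adjusted p = 0.345 by edgeR). The span of LPCAT3 overlaps EMG1 on the other strand, with 5672 counts against 2186 for LPCAT3, which leaves its value uncertain.

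Of the ferritin chains, the light one rose. FTL (ENSG00000087086, chromosome 19, 48965301 to 48966878, plus strand), which helps iron to mineralise in the ferritin core, stood at 354, 379 and 361 CPM in NS and at 415, 492 and 459 CPM in shACSS2. Every shACSS2 library lay above every NS library. The means were 364 ± 12.8 and 455 ± 38.7 CPM (SD, n = 3 each), a log2 fold change of 0.32 (SE 0.0937; adjusted p = 0.0286 by edgeR). The call ended when NS replicate 1 or 3 or shACSS2 replicate 2 or 3 was left out, at log2 fold changes of 0.30, 0.31, 0.26 and 0.32 (adjusted p = 0.151, 0.105, 0.127 and 0.084 by edgeR), and with library totals at 0.25 (adjusted p = 0.0671 by edgeR).

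FTH1 (ENSG00000167996, chromosome 11, 61959718 to 61967660, minus strand), the chain with ferroxidase activity, stood at 324, 350 and 305 CPM in NS and at 357, 337 and 375 CPM in shACSS2. The groups overlapped, and the log2 fold change was 0.12 (SE 0.0929; adjusted p = 0.377 by edgeR). The ratio of FTH1 to FTL counts was 0.917, 0.924 and 0.846 in NS and 0.860, 0.685 and 0.817 in shACSS2. These ratios overlapped, with a log2 difference of −0.19 (exact two-sided permutation p = 0.2, adjusted over 3 ratios 0.3). That difference was −0.09 without shACSS2 replicate 2. The difference between the chains was therefore not shown.

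Ferritin genes have many pseudogene copies in the genome that can share their reads. The table names 25 such copies of FTH1, 13 of them with counts, which together held 0.831% of the counts of gene and copies, and 16 of FTL, 3 with counts, which held 0.213%. No copy had a mean above 0.772 CPM. Adding their counts left FTL at a log2 fold change of 0.32 (adjusted p = 0.0289 by edgeR). The sources used here do not say how reads that match several places were treated.

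TFRC (ENSG00000072274, chromosome 3, 196027183 to 196082189, minus strand) stood at 264, 281 and 275 CPM in NS and at 317, 249 and 265 CPM in shACSS2. The shACSS2 libraries enclosed the range of the NS libraries, with replicate 1 above it and replicate 2 below it. The log2 fold change was 0.02 (SE 0.101; adjusted p = 0.922 by edgeR), and its sign turned with library totals (−0.05), without NS replicate 1 (−0.0095) and without shACSS2 replicate 1 (−0.09). The ratio of TFRC to FTH1 counts was 0.815, 0.802 and 0.900 in NS and 0.889, 0.739 and 0.707 in shACSS2, with a log2 difference of −0.11 (exact two-sided permutation p = 0.4, adjusted over 3 ratios 0.4). Without shACSS2 replicate 1 this difference was −0.21 (exact two-sided permutation p = 0.1, not adjusted). That is the smallest p that 3 against 2 libraries allow, so this test could not decide at 0.05.

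Per kilobase of annotated exon, the levels of the members spanned more than the changes between groups. In NS, FTL led at 415 ± 14.6 CPM per kilobase (SD, n = 3), followed by FTH1 at 161 ± 11, GPX4 at 154 ± 9.98 and TFRC at 34.6 ± 1.07. FTH1 and GPX4 overlapped there. In shACSS2, GPX4 reached 231 ± 14.8 CPM per kilobase and lay above FTH1 at 175 ± 9.38 in every library. ACSL4 and ACSL3 overlapped in NS, both at 13.2 CPM per kilobase, and stood apart in shACSS2 at 17.8 ± 3.92 and 11 ± 0.832. ACSL1 followed in NS at 5.91 ± 0.297, LPCAT3 at 4.02 ± 0.353, SLC7A11 at 1.50 ± 0.222 and AIFM2 at 0.872 ± 0.0338 CPM per kilobase. In shACSS2 the last 2 overlapped, at 0.994 ± 0.263 and 0.977 ± 0.223. Exon length here is the union of all annotated exons, which understates the level of genes with long exons that these cells do not use.

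Among the shACSS2 libraries, replicate 1 stood apart along GC content. The departure of shACSS2 replicate 1 from the mean of its group, taken gene by gene, had a Spearman coefficient of −0.603 with GC content. The coefficient was 0.475 and 0.388 for shACSS2 replicates 2 and 3 and −0.0896 to 0.112 for NS. Departures within a group cancel for each gene, so its coefficients are not independent. A strong coefficient in 1 library pushes the others toward the opposite sign. The 5 members of lowest GC content, SLC7A11 (35.4%), ACSL4 (37.4%), ACSL3 (38.1%), TFRC (41.5%) and ACSL1 (45.1%), were all highest in replicate 1 among the shACSS2 libraries. GPX4 (62.5%) and FTL (56.3%) were lowest in it. FTH1 (50.1%), LPCAT3 (52.8%) and AIFM2 (56.1%) were in the middle, and AIFM2, of nearly the GC content of FTL, was 0.31 higher in replicate 1 than the mean of the other two on the log2 scale. SLC7A11 was 0.62 and ACSL4 0.52 higher there on the log2 scale than the mean of shACSS2 replicates 2 and 3. With an offset for GC content and gene length fitted to each library, the log2 fold changes were 0.60 for GPX4, 0.46 for ACSL4, 0.31 for FTL and −0.47 for SLC7A11 (adjusted p = 4.41e-05, 0.000533, 0.00357 and 0.0272 by edgeR). Under that offset 6 members passed, with ACSL1 and ACSL3 added, where 28.3% of all genes did. With the replicate block added to it 5 passed, ACSL1 no longer among them (adjusted p = 0.0536 by edgeR), where 29.3% of all genes did.

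**Figure D4:**
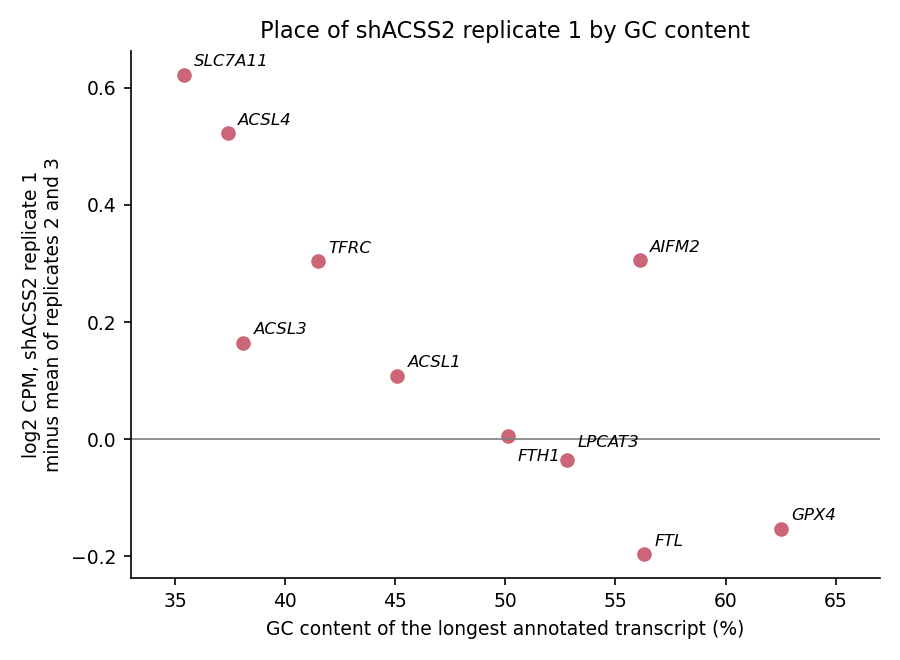
GC content of each gene's longest annotated transcript (horizontal axis, %) against its log2 CPM in shACSS2 replicate 1 minus the mean of shACSS2 replicates 2 and 3 (vertical axis), 1 point per gene. SLC7A11 and ACSL4, of low GC content, are 0.62 and 0.52 higher in replicate 1, and GPX4 and FTL, of high GC content, are 0.15 and 0.20 lower.

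By the size of the log2 fold change SLC7A11 (−0.59) was just ahead of GPX4 (0.59) and was taken for a search for genes of like pattern. GPX4 was ahead with DESeq2 (0.60 against −0.58), with upper-quartile factors (0.593 against −0.5895) and with the GC and length offset (0.60 against −0.47). Of 11894 genes that averaged 5 CPM or more, NUP98, LEMD3 and PIK3R3 had the log2 CPM most correlated with that of SLC7A11 (Pearson r = 0.996, 0.992 and 0.992, n = 6 libraries, a description that shares group and library effects). None of these 3 passed the test, at log2 fold changes of −0.15, −0.32 and −0.20 (adjusted p = 0.283, 0.0572 and 0.206 by edgeR).

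A sequence that is frequent in the 3′ UTRs of genes that fell in these libraries, ATGCTCA or TGCTCAA, is present in 3 of the 10 members. It had been picked from the same fold changes, so its presence is a description. The windows are from the longest annotated 3′ UTR and are shown because 2 of their genes are the members with a log2 fold change below 0. Capitals mark the sequence.
SLC7A11: atgaatgtATGCTCAtactcgact
ACSL3: ttaagatgTGCTCAAatcaggact
ACSL1: gatcagccATGCTCAgctgtgacg
They lie at chr4:138166028-138166051 (minus strand), chr2:222942979-222943002 (plus) and chr4:184756267-184756290 (minus) in GRCh38. SLC7A11 and ACSL3 had log2 fold changes of −0.59 and −0.27 and ACSL1 one of 0.19. None of the 3 members that rose (GPX4, ACSL4 and FTL) held it. The share of genes that did was 6.76% among all genes that rose, 16% among those that did not pass the test and 43.9% among those that fell. Of the genes in the pathway lists read below, 7 of 13 that fell held it, among them SCD, EPAS1, YAP1, COQ8A, TMEM189 and ISCA1. So did 3 of 26 that rose (SLC39A14, CISD2 and LYRM4) and 21 of 112 that did not pass. Its part in these changes was not tested. The 3′ UTR of SLC7A11 is 7859 bases long and that of FTL 143, and longer ones hold any short sequence more often.

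Other genes of these pathways were read from 8 lists with 151 distinct genes tested. Of these 39 passed the test, 26 higher and 13 lower, and 112 did not. Across all genes tested 17.1% passed, 7.48% higher and 9.64% lower. By list the share ran from 5.56% (selenoprotein synthesis) to 43.5% (regulators). The share of all genes moved with the setting. It was 6.15%, 15.5% and 6.98% without NS replicates 1 to 3, and 23.5%, 11.7% and 11.9% without shACSS2 replicates 1 to 3. With the GC and length offset it was 28.3%, and with library totals 17.5%. In the list of iron uptake, export and control, 6 genes of 15 passed higher, 0 passed lower and 9 did not pass, with a median log2 fold change of 0.24. The list had 3 genes higher without NS replicate 1 or without NS replicate 3, and 8 higher and 1 lower without shACSS2 replicate 1. HMOX1, which frees iron from haem, rose from 14.3 ± 1.08 to 26.6 ± 3.42 CPM (n = 3 each, ± SD), a log2 difference of 0.89 (SE 0.13, adjusted p = 0.000432 by edgeR). BLVRB, a biliverdin reductase, had a log2 fold change of 0.61 (SE 0.109). SLC40A1 (ferroportin), whose 5′ UTR window is printed above, stood at 7.57, 9.35 and 5.76 CPM in NS and at 16.6, 9.66 and 14.2 CPM in shACSS2. Its log2 fold change was 0.84 (SE 0.205; adjusted p = 0.0118 by edgeR), and shACSS2 replicate 2 lay just above the highest NS library.

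Among metal importers, SLC39A8 was higher by 0.43 on the log2 scale (SE 0.11), SLC39A14 by 0.42 (SE 0.0945) and SLC11A2 (DMT1) by 0.38 (SE 0.0995), with adjusted p of 0.0148, 0.00721 and 0.0177 by edgeR. Leaving out NS replicate 1 or 3 ended the calls of SLC40A1, SLC39A8 and SLC11A2, with adjusted p by edgeR of up to 0.0742, 0.0959 and 0.12. The iron regulatory proteins ACO1 and IREB2 did not pass, at −0.13 (SE 0.0976) and −0.09 (SE 0.118), nor did NCOA4, the receptor that takes ferritin to the lysosome, at 0.20 (SE 0.0964; adjusted p = 0.369, 0.647 and 0.17 by edgeR).

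In the list of cystine and glutathione genes, 5 of 21 rose, 0 fell and 16 missed the threshold, with a median of 0.18. Among them were TXN (log2 fold change 0.45, SE 0.107), PRDX1 (0.41, SE 0.105), CTH (0.41, SE 0.12) and PRDX6 (0.36, SE 0.0933), which reduce disulfides or peroxides or supply cysteine. None of the 21 passed without NS replicate 1 or without NS replicate 3, where adjusted p by edgeR reached 0.071 for TXN and 0.149 for CTH, and 3 passed without shACSS2 replicate 2. The span of PRDX1 overlaps MMACHC on the other strand. SLC3A2, the partner chain of SLC7A11, did not pass the test: it stood at 137 ± 16.4 CPM in NS and 149 ± 12.8 CPM in shACSS2 (SD, n = 3 each; adjusted p = 0.476 by edgeR). GCLC and GCLM, which make the first bond of glutathione, had log2 fold changes of −0.10 and 0.11 (adjusted p = 0.57 and 0.525 by edgeR). In the list of selenoprotein synthesis, to which GPX4 owes its selenocysteine, 1 of 18 rose, 0 fell and 17 did not pass, with a median of 0.16. The 1 was MSRB1, a methionine sulfoxide reductase, at 0.38 (SE 0.11; adjusted p = 0.0279 by edgeR), and leaving out shACSS2 replicate 2 or either NS replicate 1 or 3 ended its call (adjusted p by edgeR of up to 0.151). Without NS replicate 2 the list had 3 genes past the test, and with the GC and length offset 7.

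Of the other acyl-CoA synthetases, 2 of 13 rose, 1 fell (ACSS2 itself) and 10 did not pass, with a median of −0.02. SLC27A2, a very long chain synthetase, rose from 23.2 ± 1.87 to 34.6 ± 2.97 CPM (n = 3 each, ± SD), a log2 difference of 0.58 (SE 0.115, adjusted p = 0.0038 by edgeR). ACSM3 had a log2 fold change of 0.57 (SE 0.164; adjusted p = 0.0278 by edgeR), but it overlaps THUMPD1 and ERI2 on the other strand. It kept its call in 10 of 16 alternatives and not without any single library other than shACSS2 replicate 2 (adjusted p by edgeR of up to 0.101). In the list of phospholipid remodelling and peroxidation, 2 of 24 rose, 3 fell and 19 did not pass, with a median of 0.02, and the counts were 5 and 5 without shACSS2 replicate 1 and 7 and 3 with the GC and length offset. PLA2G4A, the cytosolic phospholipase A2 that releases arachidonic acid, rose from 30.7 ± 1.99 to 47.8 ± 6.15 CPM, a log2 difference of 0.64 (SE 0.115, adjusted p = 0.00211 by edgeR). SCD, which makes monounsaturated fatty acids, fell from 900 ± 43.3 to 598 ± 44.1 CPM, a log2 difference of −0.59 (SE 0.0928, adjusted p = 0.00076 by edgeR). PLA2G6, a phospholipase that removes oxidised fatty acids, had −0.87 (SE 0.188) and TMEM189, the desaturase of plasmalogen synthesis, −0.83 (SE 0.137). ELOVL5, an elongase of polyunsaturated fatty acids, had 0.29 (SE 0.0934; adjusted p = 0.0463 by edgeR) and kept its call in 8 of 16 alternatives, with shACSS2 replicate 1 the only library whose omission did not end it (adjusted p by edgeR of up to 0.185). PLA2G6 overlaps MAFF on the other strand.

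In the list of ubiquinone synthesis and other suppressors that act beside GPX4, 1 of 23 rose, 2 fell and 20 did not pass, with a median of 0.09. COQ8A, a kinase-like protein of ubiquinone synthesis, fell from 170 ± 2.82 to 113 ± 13.3 CPM (n = 3 each, ± SD), a log2 difference of −0.59 (SE 0.101, adjusted p = 0.00141 by edgeR). COQ7, a hydroxylase, was at −0.37 on the log2 scale (SE 0.125) and COQ2, a prenyltransferase, at 0.42 (SE 0.129), with adjusted p of 0.0499 and 0.0353 by edgeR. Neither passed without shACSS2 replicate 3 or without NS replicate 1 or 2 (adjusted p by edgeR of up to 0.218 and 0.19), nor COQ7 without shACSS2 replicate 2 or COQ2 without NS replicate 3. COQ7 also missed the threshold with RLE factors, DESeq2 and limma-voom, and COQ2 with library totals. The count of this list was 1 without NS replicate 1 or without shACSS2 replicate 3 and 5 without shACSS2 replicate 1. It was 7 (4 higher, 3 lower) with the GC and length offset, and 0 higher and 4 lower with library totals. GCH1, which makes tetrahydrobiopterin, did not pass at 0.37 (SE 0.125; adjusted p = 0.0511 by edgeR).

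In the list of mitochondrial iron and iron-sulfur cluster genes, 4 of 17 rose, 2 fell and 11 missed the threshold, with a median of 0.14. The 3 CISD genes, which encode iron-sulfur proteins, rose: CISD3 by 0.48 (SE 0.114), CISD2 by 0.43 (SE 0.124) and CISD1 by 0.37 (SE 0.1). LYRM4, a cofactor of the cysteine desulfurase, had 0.54 (SE 0.139), ISCA1, an assembly factor, −0.41 (SE 0.101) and ABCB8 −0.39 (SE 0.0986). The count of this list was 0 without NS replicate 1 and 1 (ISCA1) without NS replicate 3, where adjusted p by edgeR reached 0.135 for CISD1. CISD3 overlaps PCGF2 on the other strand, and ABCB8 was at −0.22 with the GC and length offset.

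Among regulators named in ferroptosis, 5 of 23 rose, 5 fell and 13 did not pass, with a median of −0.02. NFE2L2 (NRF2), an activator of SLC7A11, FTH1 and HMOX1 transcription, fell from 39.0 ± 3.00 to 23.1 ± 1.81 CPM (n = 3 each, ± SD), a log2 difference of −0.76 (SE 0.113, adjusted p = 0.000514 by edgeR), and it overlaps AGPS on the other strand. EPAS1 (HIF-2α) fell by 1.05 on the log2 scale (SE 0.12), YAP1 by 0.79 (SE 0.0991) and EGLN1, an oxygen sensor, by 0.44 (SE 0.092). SAT1, which acetylates polyamines, rose by 0.93 (SE 0.113), ATF3 by 0.66 (SE 0.127), HSPA5, an ER chaperone, by 0.44 (SE 0.0935), SQSTM1 by 0.40 (SE 0.0993) and VDAC2 by 0.40 (SE 0.0916). The list had 16 genes past the test without shACSS2 replicate 1, 6 higher and 10 lower. Leaving out NS replicate 1, NS replicate 3 or shACSS2 replicate 3 ended the call of SQSTM1 (adjusted p by edgeR of up to 0.092), and leaving out NS replicate 1 that of VDAC2 (adjusted p = 0.0819 by edgeR). SQSTM1 overlaps MGAT4B on the other strand.

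**Figure D5:**
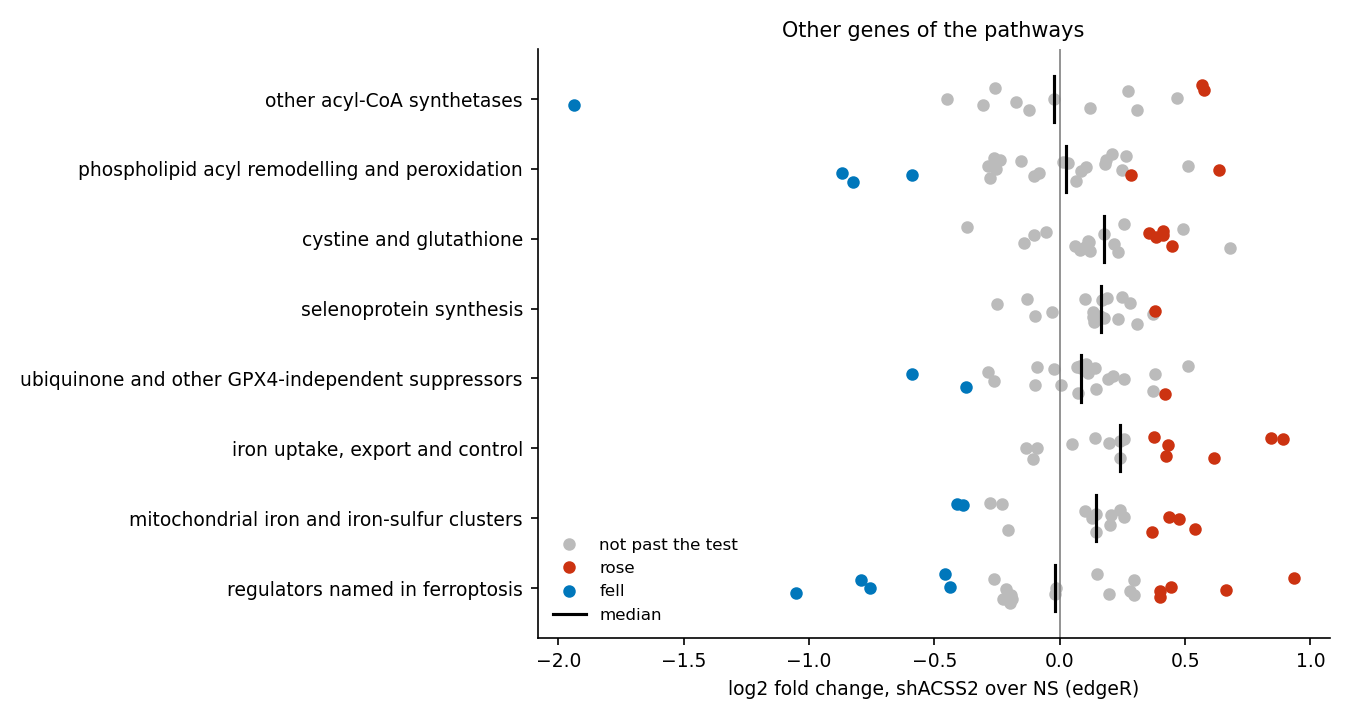
Log2 fold change of shACSS2 over NS (horizontal axis) for each tested gene of 8 pathway lists, coloured by whether it rose, fell or did not pass the test, with the median of a list as a line. Iron uptake, export and control has 6 genes that rose and 0 that fell, and the regulators have 5 of each. Across all genes tested 7.48% rose and 9.64% fell.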

How the data were processed

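Raw read counts for 6 libraries were used as deposited by the authors, without normalisation. The build hg19 and the tools DESeq2 (version 4.3.1 as written), featureCounts 1.5.0-p3, HISAT2 2.0.5 and fastp come from lists, without role or order, per the submitters' processing notes. Gene identifiers were matched to GENCODE v29 (GRCh38), which gave names, positions, exon length and GC content, and 27 names were restored from the identifier. The build of the alignment, strand and multi-mapping settings are not given beyond this in the sources used here.

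The test was the quasi-likelihood test of edgeR 4.0.16, run in R 4.3.3 (TMM factors, default expression filter, robust fit, group as the only term, Benjamini-Hochberg adjustment over 16210 genes at 0.05), which was tested on simulated data. The SE of a log2 fold change is its size over the square root of F. Ratios were tested by exact two-sided permutation. Alternatives were RLE, upper-quartile and no composition factors, other filters, DESeq2 1.42.0, limma 3.58.1 voom, an adjusted p of 0.01, the replicate number as a block, a GC and length offset (natural splines with 5 degrees of freedom each), added pseudogene counts, and each library left out.

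The members and lists were chosen with earlier results of these data known. Named are ACSS2, the 10 members, up to 4 genes past the test with the largest change per list, and 3 genes most correlated with the member of largest change. The other listed genes past the test, and ACO1, IREB2, NCOA4, SLC3A2, GCLC, GCLM and GCH1, were named after their values were seen. Sequences are from GENCODE v29 transcripts. Some listed genes are not reported here by name, though they are in the counts.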

Additional observations from a re-analysis of the deposited data

How the results depend on the processing

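The count of genes past the test was 2776 (1213 higher, 1563 lower). It was 4585 with the GC and length offset (60.6% of them higher, against 43.7%), 4751 with that offset and the replicate block, 1010 at an adjusted p of 0.01, and from 1018 (without NS replicate 1) to 3931 (without shACSS2 replicate 1) with a library left out. With library totals 734 were higher and 2108 lower (25.8% higher). Of the members 4 passed. The count was 6 with the GC and length offset, 5 with that offset and the block, and 3 with library totals (1 higher, 2 lower). It was 1 at an adjusted p of 0.01 and from 1 to 5 with a library left out. Apart from the stricter threshold, which can only lower a count, the cause of these shifts was not tested.

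TFRC changed sign with library totals (−0.0542), without NS replicate 1 (−0.0095) and without shACSS2 replicate 1 (−0.0871), and ran from −0.0871 to 0.0933 over the 6 libraries left out. Over the 17 alternatives no other member changed sign, and GPX4 was the only member past the test that kept its call in all of them. Over all named genes and alternatives, 743 values kept direction and side of the threshold, 84 lost the call, 12 gained it and 3 reversed. With a library left out, the log2 ratio ran from 0.56 to 0.75 for ACSL4 to ACSL3, −0.26 to −0.09 for FTH1 to FTL and −0.21 to −0.05 for TFRC to FTH1.

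The sources used here do not say whether same-numbered libraries share more than a number. Their deviations correlated at −0.0428, −0.0664 and 0.112. With the replicate block 2923 genes and 4 members passed, and the ratio differences were 0.68, −0.19 and −0.11 (exact sign-flip p = 0.25, 0.25 and 0.75). AIFM2 and SLC7A11 had under 300 counts per library, the fewest of the members.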
